A study of Mus musculus with 90 samples.

Results

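YUMM2.1 is a mouse melanoma line, and the samples described here are its cultures kept for 3 weeks in 50 IU/mL IFNγ and the cultures of the same age kept in BSA (0 IU/mL IFNγ). They were chosen by their labels, as the 3 IFNγ samples and the 3 control samples collected at 3 weeks with no fresh dose of IFNγ (0 h), and make up 6 of the 90 samples of the series and 6 of its 45 YUMM2.1 samples. Both groups were grown in RPMI-1640 with serum and plated again shortly before collection, and each is 1 established line in vitro with no host cells. Transcripts were counted from their 3′ ends by digital gene expression. The labels give 3 replicates per group. The study states for its experiments in general that replicates were biological and independent, and does not say at which step these cultures were separated. The p-values rest on the spread between samples labelled as replicates, estimated over all 45 YUMM2.1 samples and not from these 6 alone. The study asked how tumour cells that have lived with IFNγ differ from untreated cells. YUMM2.1 cells after 1 or 2 weeks of the same treatment against controls of the same age, naive YUMM2.1 cells 24 h after a first dose of IFNγ against untreated cells at 0 weeks, and CT26 colon carcinoma cells after 3 weeks of IFNγ against their 3-week control were used for comparison. No sample belongs to more than 1 of these comparisons.

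IFNγ is a cytokine made mainly by activated T cells and NK cells. It binds a receptor of IFNGR1 and IFNGR2 chains, whose kinases JAK1 and JAK2 start a signal that acts on GAS elements in the promoters of primary targets such as Irf1. IRF1 and other IRF factors act on ISRE elements of a wider set of genes, which includes the immunoproteasome, MHC class I and II, guanylate-binding proteins, immunity-related GTPases and several PARP enzymes, while SOCS1 damps the signal. In tumour cells the pathway raises the display of antigens to T cells, and also inhibitory ligands such as PD-L1, encoded by Cd274.

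Promoters are shown for 5 genes that were higher after 3 weeks of IFNγ, from different functional groups described below, because the letters of the GAS and ISRE elements can be read in them. The sequences are from RefSeq on GRCm38.p6, 5′ to 3′ on the strand of the gene, and end before the first base of the annotated gene. Capitals mark matches to the GAS letters TTCNNNGAA or the ISRE letters, GAAA and GAAA with 2 bases between them, on either strand. Irf1 (chr11:53769764-53770013, + strand) encodes a transcription factor of the pathway, B2m (chr2:122147437-122147685, + strand) the light chain of MHC class I, Gbp7 (chr3:142530086-142530335, + strand) a guanylate-binding protein, Igtp (chr11:58199306-58199555, + strand) an immunity-related GTPase and Parp11 (chr6:127446590-127446839, + strand) a mono-ADP-ribosyltransferase.
Irf1: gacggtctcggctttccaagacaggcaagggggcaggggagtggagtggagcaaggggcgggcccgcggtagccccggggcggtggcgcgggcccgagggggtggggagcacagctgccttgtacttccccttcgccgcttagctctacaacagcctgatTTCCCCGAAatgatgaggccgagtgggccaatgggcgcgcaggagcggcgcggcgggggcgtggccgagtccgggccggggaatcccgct
B2m: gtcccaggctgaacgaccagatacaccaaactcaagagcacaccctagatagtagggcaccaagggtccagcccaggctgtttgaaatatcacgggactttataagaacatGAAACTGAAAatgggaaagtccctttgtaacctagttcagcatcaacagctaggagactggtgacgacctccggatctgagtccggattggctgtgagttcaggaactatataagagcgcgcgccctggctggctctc
Gbp7: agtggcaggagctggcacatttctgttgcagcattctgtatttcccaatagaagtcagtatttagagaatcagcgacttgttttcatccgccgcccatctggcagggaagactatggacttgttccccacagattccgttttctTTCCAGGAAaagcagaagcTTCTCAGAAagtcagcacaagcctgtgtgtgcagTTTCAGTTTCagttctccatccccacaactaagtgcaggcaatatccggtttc
Igtp: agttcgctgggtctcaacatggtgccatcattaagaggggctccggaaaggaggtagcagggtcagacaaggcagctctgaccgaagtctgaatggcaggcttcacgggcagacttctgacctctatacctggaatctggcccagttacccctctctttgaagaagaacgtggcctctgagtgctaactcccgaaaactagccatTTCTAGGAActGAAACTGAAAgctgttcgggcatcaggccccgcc
Parp11: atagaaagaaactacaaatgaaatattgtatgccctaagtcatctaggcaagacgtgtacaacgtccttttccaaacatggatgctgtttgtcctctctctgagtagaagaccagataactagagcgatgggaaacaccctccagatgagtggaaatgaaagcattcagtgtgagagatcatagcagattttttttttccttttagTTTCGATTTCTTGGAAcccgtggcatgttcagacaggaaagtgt

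Irf1 held a GAS match and B2m an ISRE match, whereas Gbp7, Igtp and Parp11 held both, overlapping in Parp11. In windows from 250 bases before to 50 bases after the start, a RefSeq sequence was found for 50 of the 69 genes called higher, of which 15 (30%) held the GAS letters and 22 (44%) the ISRE letters. Of the 20 genes called lower with a sequence, 2 held GAS letters and 1 held ISRE letters. Counted by gene in the same way, 7.85% of the 7284 tested genes with a sequence held the GAS letters and 3.84% the ISRE letters, and the shares were 9.55% and 3.99% over all 27025 genes with a promoter. These are matches of letters and do not show binding.

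The labelled cell type was checked against marker genes. Sox10, a transcription factor of the melanocyte lineage, was at 27.1, 31.2 and 31.7 CPM (counts scaled to a common library size) in the controls and 25.7, 52 and 21 CPM in the IFNγ samples. The pigment-cell genes Mlana and Tyrp1 had no count in any of the 6 samples. The 8 melanoma markers summed to 137 to 143 CPM in the controls and 63.1 to 124 CPM in the IFNγ samples. These sums reflect S100b and Sox10 and not the set as a whole. S100b was at 106 to 111 CPM in the controls and 42.1 to 69.1 CPM in the IFNγ samples. Mitf, Tyr, Dct and Pmel were at no more than 2.0 CPM in any of the 6 samples. All 5 B cell markers, 7 of 10 T and NK cell markers, 6 of 11 myeloid markers and 8 of 9 epithelial markers were at 0, and the summed T and NK cell markers reached 1.03 CPM in the controls and 7.01 CPM in the IFNγ samples. The summed myeloid markers were at 10.5 to 20.9 CPM and 11 to 26 CPM. Of the endothelial markers Cdh5, Kdr and Tek were at 0, while Pecam1 was at 355 to 367 CPM in the controls and 274 to 382 CPM in the IFNγ samples. The summed fibroblast markers, with Col1a1 and Thy1 at 0, were at 106 to 111 CPM and 97.1 to 114 CPM. In bulk RNA, fewer cells with a transcript and less of it per cell cannot be told apart.

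The groups differed in depth. Total counts were 2354083, 2663541 and 3047691 in the controls and 1617485, 969124 and 274719 in the IFNγ samples, so every IFNγ library was shallower than every control. A single count was worth 0.345 to 0.444 CPM in the controls and 0.611, 1.0 and 3.5 CPM in the IFNγ samples. In IFNγ replicate 3, the shallowest library of the series, a count of 0 allows a level of up to 10.5 CPM (3 counts). Such limits and the intervals below cover counting error only. Depth and treatment cannot be told apart in this comparison.

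Of 9589 genes tested by quasi-likelihood in edgeR, 69 were higher after 3 weeks of IFNγ (0.720%) and 24 were lower (0.250%) at an adjusted p (Benjamini-Hochberg) under 0.05. The median log2 fold change was 3.33 over the higher genes and −0.64 over the lower genes, beside 0.00 over all genes tested. The 3 IFNγ samples lay above all 3 controls in 61 of the 69 higher genes, beside 8.08% of all genes tested, and below all 3 in 24 of the 24 lower genes, beside 11.8%. With library totals as the only scaling, 84 genes were higher and 13 lower. When 1 sample was left out, 54 to 67 genes were higher. The lower genes were then 33 without IFNγ replicate 1, 5 without IFNγ replicate 2, 2 without IFNγ replicate 3, and 12, 5 and 8 without control replicates 1, 2 and 3.

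**Figure D1:**
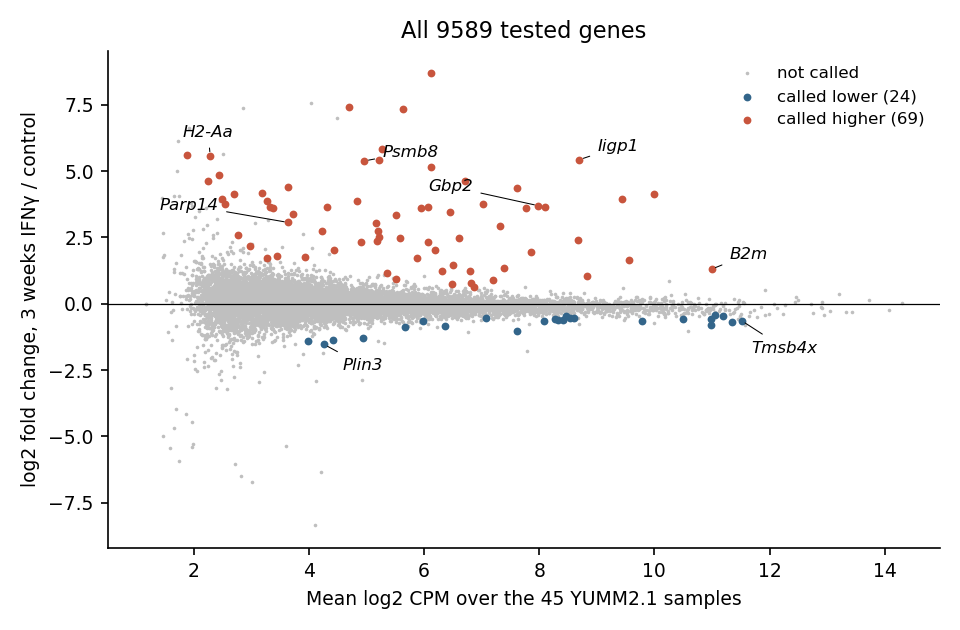
Each point is 1 of the 9589 tested genes, with its mean log2 CPM over the 45 YUMM2.1 samples on the x axis and the log2 fold change of 3 weeks of IFNγ over the 3-week control on the y axis. The 69 genes called higher reach 8.68, whereas the 24 called lower lie between −1.53 and −0.43.

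By the GENCODE annotation of GRCm38, 12 of the 69 higher genes lay on chromosome 17, which held 473 of the 9589 tested genes. All 12 were between positions 33915899 and 37274484, which is in the mouse MHC region. Chromosome 11 held 11 of the higher and 748 of the tested genes, among them Irf1 and the immunity-related GTPase genes Irgm1, Tgtp1, Tgtp2, Ifi47, Igtp and Irgm2, and its 11 genes were spread from position 48861968 to 118402092. Chromosome 5 held 6 of the higher and 640 of the tested genes, and 4 of the 6, Gbp4, Gbp6, Gbp8 and Gbp9, are guanylate-binding proteins.

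Both receptor chains were counted in every sample. The chain Ifngr1 was at 25.7, 25.7 and 24.5 CPM in the controls against 26.9, 21 and 24.5 CPM in the IFNγ samples. The log2 difference was −0.06 ± 0.25 (SE from the fit, n = 3 per group), with groups that overlapped. Its partner Ifngr2 was at 7.8 to 9.31 CPM in the controls and 3.5 to 6.72 CPM in the IFNγ samples, a log2 difference of −0.66 ± 0.57 that did not pass.

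Neither chain was called, nor were the kinases. Jak1 had a log2 difference of 0.05 ± 0.30 and Jak2, with 0 counts in IFNγ replicate 3, one of 0.80 ± 0.55. Stat3, which transmits IL-6 family signals, was at 5.77, 6.24 and 10 CPM against 10.4, 17 and 24.5 CPM. The groups did not overlap, but the log2 difference of 1.00 ± 0.42 did not pass (edgeR adjusted p = 0.36). Irf9, a DNA-binding factor of the interferon response, was at 76.3, 72.5 and 70.7 CPM against 90.4, 72.1 and 147 CPM, with 1 IFNγ sample among the controls.

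Of 5 tested IRF genes and partner factors, 2 were higher. Irf1 was at 7.54, 13.3 and 12.8 CPM in the controls and 29.9, 31 and 38.6 CPM in the IFNγ samples, a log2 fold change of 1.47 ± 0.23 (edgeR adjusted p = 3e-05). All 3 IFNγ samples were above the controls. Nlrc5, the transactivator of MHC class I genes, had 2 counts over the controls and 19 over the IFNγ samples, 25.1 times as many after scaling to library size (95% exact interval 6.06 to 222). Nlrc5 had no count in IFNγ replicate 3, and without IFNγ replicate 1 its adjusted p was 0.23. With only the compared groups in the fit, it had too few counts to be tested. Irf2 was at 7.02 to 10.2 CPM against 13 to 14.1 CPM and did not pass (edgeR adjusted p = 0.6).

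None of 9 tested feedback genes was called, beside 0.97% of all genes tested, a share at which a list of this size can hold no call. Their median log2 fold change was 0.12, and 5 of the 9 were positive. The values ranged from −0.60 to 3.27, the highest being that of Usp18, which did not pass. Socs1, an inhibitor of JAK kinases, was at 5.77, 4.68 and 6.2 CPM in the controls and 9.77, 10 and 0 CPM in the IFNγ samples. The first and second IFNγ samples were above the controls, and the third had no count. Socs3 was at 4.44 to 7.8 CPM against 6.11 to 10.5 CPM. Ptpn2, a phosphatase that acts on the JAK-STAT pathway, was at 36.6 to 48.6 CPM against 22 to 35.4 CPM, a log2 difference of −0.53 ± 0.20 (edgeR adjusted p = 0.27).

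All 5 immunoproteasome genes rose, and in each the 3 IFNγ samples were above the controls. The immunoproteasome exchanges catalytic subunits of the proteasome and alters the peptides offered to MHC class I. Its catalytic subunit Psmb8 was at 0, 1.56 and 1.03 CPM in the controls and 38.5, 42 and 45.6 CPM in the IFNγ samples, a 41.7-fold rise (log2 5.38 ± 0.42, edgeR adjusted p = 2.7e-13). Psmb9 was at 1.33, 2.34 and 2.41 CPM against 76.4, 82.1 and 63.1 CPM, a 35.4-fold rise. The third catalytic subunit, Psmb10, was already present in the controls. It went from 51.5 to 62.4 CPM to 198 to 280.4 CPM, a log2 fold change of 1.94 ± 0.15. Of the activator subunits, Psme1 was at 41.7 to 47 CPM against 101 to 109 CPM, a 2.33-fold rise. Psme2 was at 236 to 262 CPM against 752 to 806 CPM, a 3.18-fold rise.

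The constitutive proteasome gave another picture. The log2 fold changes of its 27 genes lay between −0.50 and 0.16, with a median of 0.02. None was called, beside 0.97% of all genes tested, a share at which a list of this size can hold no call. Psmb6, the subunit that Psmb9 replaces, was at 1100.2, 1057 and 1001 CPM against 1119, 1266 and 985 CPM, a log2 difference of 0.10 ± 0.12. Psmb1 was at 823 to 869 CPM against 694 to 771 CPM, a log2 difference of −0.18 ± 0.10 that did not pass.

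**Figure D2:**
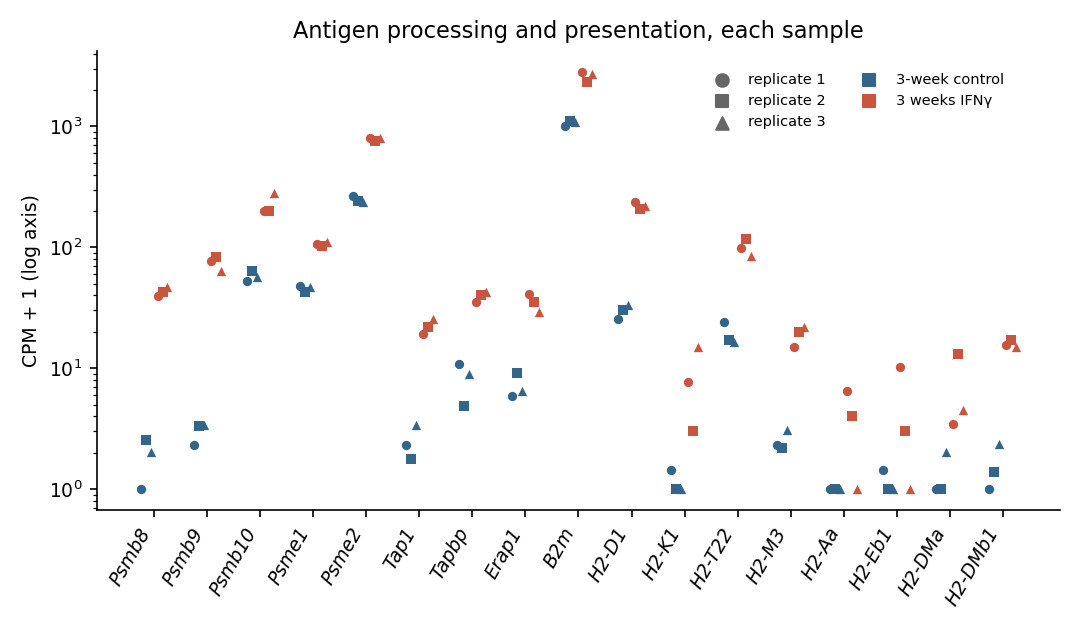
CPM plus 1 on a log axis for 17 called genes of antigen processing and presentation, with 1 symbol per replicate, controls in blue and IFNγ samples in red. The groups are apart for each gene except H2-Aa and H2-Eb1, for which IFNγ replicate 3 is at 0.

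Of 8 genes of peptide transport and loading, 3 rose. Tap1, a subunit of the transporter that brings peptides into the endoplasmic reticulum, was at 1.33, 0.78 and 2.41 CPM in the controls and 18.3, 21 and 24.5 CPM in the IFNγ samples, a log2 fold change of 3.65 ± 0.53 (edgeR adjusted p = 4.8e-06). The Tap1 and Psmb9 genes overlap at their starts on opposite strands. Tapbp, or tapasin, which docks MHC class I to the transporter, was at 9.76, 3.9 and 7.93 CPM against 34.2, 39 and 42.1 CPM, a 5.17-fold rise. Erap1, which trims peptides, was at 4.88, 8.18 and 5.52 CPM against 39.7, 34 and 28 CPM, a 5.68-fold rise. The other 5 members did not pass. Tapbpl, a tapasin relative, was at 663 to 705 CPM against 611 to 673 CPM, and Pdia3, a chaperone of the loading complex, at 585 to 596 CPM against 450.4 to 701 CPM, with groups that overlapped in both.

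Of 6 tested MHC class I genes 5 rose, and the median log2 fold change of the 6 was 2.71. B2m was at 999.9, 1104 and 1087 CPM in the controls and 2838, 2313 and 2730.2 CPM in the IFNγ samples, a 2.47-fold rise (log2 1.30 ± 0.16, edgeR adjusted p = 1.6e-07). H2-D1, a classical heavy chain, was at 24.4, 29.2 and 32.4 CPM against 235, 208 and 217 CPM, a 7.64-fold rise (log2 2.93 ± 0.18). Both were well counted, and the groups lay far apart. H2-K1, the other classical heavy chain, was at 0.444, 0 and 0 CPM against 6.72, 2.0 and 14 CPM, 1 count against 17, 44.9 times as many after scaling to library size (95% exact interval 7.04 to 1878). It passed (edgeR adjusted p = 0.012), but not without IFNγ replicate 1 (0.11), IFNγ replicate 3 (0.051), control replicate 2 (0.093) or control replicate 3 (0.11).

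The non-classical members went in different ways. H2-T22 was at 23.1, 16 and 15.5 CPM against 98.4, 115 and 84.1 CPM, a 5.64-fold rise. H2-M3, which presents formylated peptides, was at 1.17 to 2.07 CPM against 14.1 to 21 CPM, a 10.5-fold rise. H2-T23, which encodes Qa-1, a ligand of inhibitory NK cell receptors, was at 505, 471 and 504 CPM against 447, 451 and 301 CPM. Each IFNγ sample was below each control, and the log2 difference of −0.27 ± 0.14 did not pass (edgeR adjusted p = 0.51). H2 genes share long stretches of sequence, so the division of reads among them is uncertain.

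Of 8 listed genes of the MHC class II pathway 4 were tested, and all 4 rose, on few counts. H2-Ab1, Cd74, Ctss and Ifi30 were not tested. A gene with no count in any control, such as H2-Aa, passed the count filter through IFNγ samples only and could not be called lower. With only the compared groups in the fit, 1 class II gene was tested, and it was higher. H2-Aa, an alpha chain of class II, had no count in the controls and was at 5.5, 3.0 and 0 CPM in the IFNγ samples, at least 10.6-fold higher when 3 counts over the control group are taken as the limit. H2-Eb1, a beta chain, had 1 count over the controls and was at 9.16, 2.0 and 0 CPM in the IFNγ samples, 44.9 times as many counts after scaling to library size (95% exact interval 7.04 to 1878). Both were at 0 in IFNγ replicate 3. H2-DMa and H2-DMb1 form the exchange factor that loads class II. H2-DMb1 was at 0, 0.39 and 1.38 CPM against 14.7, 16 and 14 CPM, a log2 fold change of 4.39 ± 0.59 (edgeR adjusted p = 9e-07), and passed without any one sample. H2-DMa was at 0, 0 and 1.03 CPM against 2.44, 12 and 3.5 CPM, a ratio of 15 (95% exact interval 4.33 to 79.8).

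The class II calls other than H2-DMb1 rested on single libraries. Without IFNγ replicate 1, the adjusted p was 0.16 for H2-Aa and 0.5 for H2-Eb1. H2-Eb1 did not pass without control replicate 2 (0.12) or control replicate 3 (0.15) either. For H2-DMa the adjusted p was 0.52 without IFNγ replicate 2, 0.12 without control replicate 1 and 0.16 without control replicate 2. The median log2 fold change of the 4 genes was 4.50, and 4.07 with H2-Aa at its bound.

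Interferon-inducible GTPases, which act at the vacuoles of intracellular pathogens, rose together. Of 9 tested guanylate-binding proteins 7 were higher, with a median log2 fold change of 3.67 over the 9. Gbp2 was at 8.88, 9.74 and 9.31 CPM in the controls and 129, 118 and 112 CPM in the IFNγ samples, a 12.9-fold rise (log2 3.69 ± 0.18, edgeR adjusted p = 1.5e-20). Gbp3 was at 3.1 to 5.07 CPM against 47.7 to 49.1 CPM and rose 12.6-fold. Gbp7 was at 5.33 to 6.63 CPM against 73.1 to 98.1 CPM and rose 13.5-fold. In all 7 the groups were apart. The fold changes of Gbp4, Gbp6, Gbp8 and Gbp9 were 20.6, 11.1, 14.8 and 6.74, and since Gbp4, Gbp8 and Gbp9 overlap on the same strand their shares of the reads are uncertain. Gbp8 did not pass without IFNγ replicate 2 (adjusted p = 0.1). Gbp10 had 2 counts in all and Gbp11 1 count against 8, and neither passed.

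Of 9 tested immunity-related GTPases and relatives, 7 were higher, with a median log2 fold change of 3.94. Iigp1 was at 6.66, 5.07 and 4.83 CPM in the controls and 239, 229 and 252 CPM in the IFNγ samples, a 43.1-fold rise (log2 5.43 ± 0.23, edgeR adjusted p = 5.7e-23). Irgm1, a regulator of the family, was at 48.6 to 56.1 CPM against 263 to 301 CPM, a 5.29-fold rise. Igtp, Irgm2 and Ifi47 rose 12.5-fold, 12-fold and 24.8-fold, with groups apart in each. Tgtp1 and Tgtp2 are near-identical neighbours whose reads were divided differently from library to library, Tgtp1 being at 89.7, 0 and 0 CPM and Tgtp2 at 0, 79.1 and 68.2 CPM in the controls. Their sum was 79.0 ± 10.7 CPM in the controls and 1290 ± 76.3 CPM in the IFNγ samples (SD, n = 3), a 16.3-fold difference. Gvin1, a giant GTPase, had counts only in IFNγ replicate 3, at 0, 0 and 77.1 CPM over the IFNγ samples, and did not pass. On that single library it did pass with DESeq2 and with no filter on low counts.

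Among the genes called higher, the largest fitted fold changes were those of the predicted genes Gm43302, Gm4951 and Gm4070, with no function assigned here. Gm43302 had no count in the controls and was at 28.7, 46 and 17.5 CPM in the IFNγ samples, at least 86.3-fold higher. Its annotation overlaps Gbp6 and Gbp10 on the same strand. Gm4951 was at 0 in the controls and at 11.6, 13 and 24.5 CPM in the IFNγ samples, at least 34.4-fold higher. Gm4070 had 3 counts over the controls and was at 78.8, 75.1 and 77.1 CPM in the IFNγ samples, 199 times as many after scaling to library size (95% exact interval 67.3 to 973). F830016B08Rik, with a smaller log2 fold change of 5.41, was at 0.444 to 0.78 CPM against 20 to 56.1 CPM. Gm4951, F830016B08Rik and the immunity-related GTPase gene Iigp1 lay together on chromosome 18, between positions 60212080 and 60392634.

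All 6 tested interferon-responsive PARP genes and partners had a positive log2 difference, and 3 passed. Parp14 (chr16:35832874-35871544), a mono-ADP-ribosyltransferase, was at 0.888, 1.17 and 0 CPM in the controls and 5.5, 4.0 and 14 CPM in the IFNγ samples, on 5 and 17 counts. The groups did not overlap. The log2 fold change was 3.06 ± 0.67 (edgeR adjusted p = 0.0074), and without control replicate 3, which had no Parp14 count, the adjusted p was 0.097. With only the compared groups in the fit, Parp14 had too few counts to be tested. Parp9 (chr16:35938470-35972605), on the same chromosome, was at 4.88, 1.95 and 3.45 CPM against 25.7, 25 and 10.5 CPM, a log2 fold change of 2.73 ± 0.37 (edgeR adjusted p = 1.1e-06). Parp11 was at 7.54, 3.9 and 5.86 CPM against 18.3, 19 and 24.5 CPM, a log2 fold change of 1.76 ± 0.38, and did not pass without control replicate 2 (0.071).

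The other members, Parp12, Parp10 and Dtx3l, did not pass. Dtx3l, the ubiquitin ligase that pairs with PARP9, was at 2.22, 2.34 and 3.45 CPM against 7.94, 5.0 and 17.5 CPM, a log2 difference of 1.57 ± 0.64 (edgeR adjusted p = 0.33). Dtx3l overlaps Parp9 on the opposite strand. Parp12 was at 1.78, 0.78 and 1.72 CPM against 4.89, 9.01 and 0 CPM and Parp10 had a log2 difference of 0.85 ± 0.75.

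**Figure D3:**
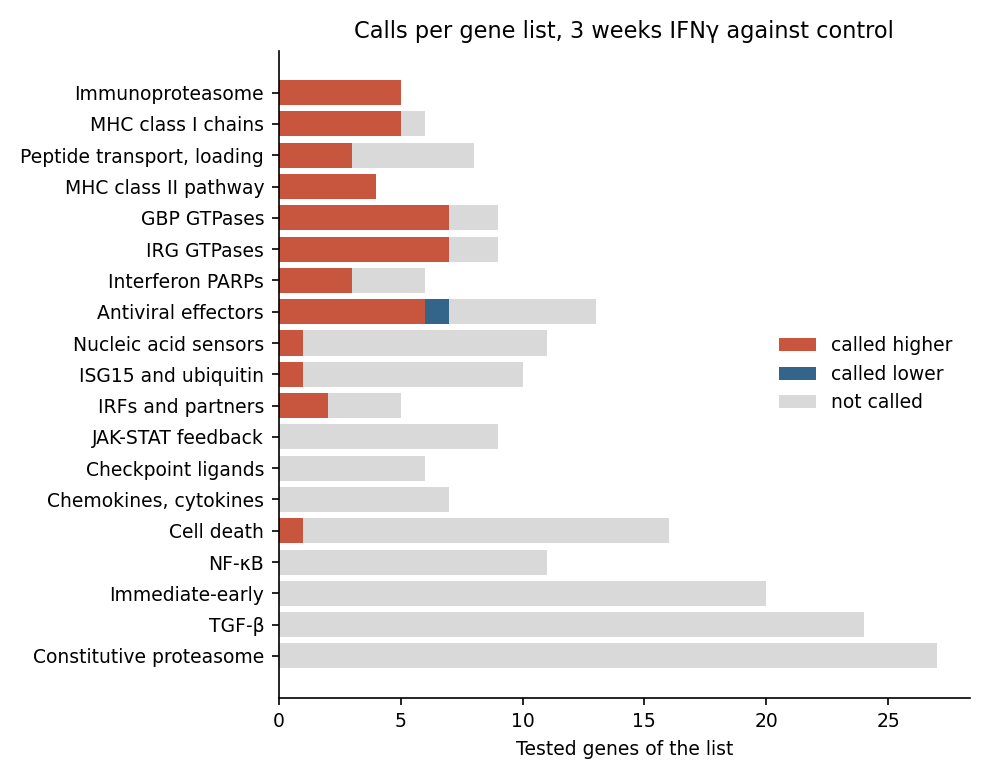
Bars give the number of tested genes in 19 gene lists, split into genes called higher (red), called lower (blue) and not called (grey) at 3 weeks of IFNγ against control. All tested genes of the immunoproteasome and MHC class II lists were called higher, though only 4 of 8 listed class II genes were tested. No tested gene of the constitutive proteasome, TGF-β, immediate-early or NF-κB lists was called, beside 0.97% of all genes tested.

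Antiviral genes were called in part. Of 13 tested effectors 6 rose and 1 fell. Of 11 nucleic acid sensors 1 rose, as did 1 of 10 genes of the ISG15 and ubiquitin systems. Over all genes tested, 0.720% were called higher. The log2 difference was positive in 11 of the 13 effectors, all 11 sensors and all 10 ISG15 and ubiquitin genes. The median log2 fold changes were 1.12, 0.638 and 1.82. All 3 IFNγ samples lay above all 3 controls in 8 effectors, 3 sensors and 3 ISG15 and ubiquitin genes. Zbp1, which binds Z-form nucleic acids, was at 0, 0.78 and 0.689 CPM in the controls and 32.4, 32 and 45.6 CPM in the IFNγ samples, a 57.5-fold rise. Bst2, or tetherin, which holds virions at the cell surface, was at 66.3 to 80.8 CPM against 179 to 194 CPM, a log2 fold change of 1.34 ± 0.13. Ifit3 was at 6.24 to 7.54 CPM against 17.7 to 32 CPM and rose 3.32-fold. In these 3 the groups were apart. Ifit1, at 4.83 to 6.21 CPM against 7.01 to 11 CPM, had a log2 difference of 0.89 ± 0.43 and did not pass. Rtp4, Ifi35 and Ifi27 rose 5.08-fold, 2.34-fold and 1.86-fold.

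The called sensor, Ddx60, a helicase, had no count in the controls and 10 over the IFNγ samples, at least 8.81-fold higher. It lost its call without IFNγ replicate 2 or 3 or without any one control, with adjusted p between 0.058 and 0.09. Ube2l6, the conjugating enzyme for ISG15, was at 6.63 to 10.2 CPM against 42.1 to 55 CPM, a 5.55-fold rise. Ifitm3, which blocks the entry of viruses, was at 179, 196 and 196 CPM against 454, 409 and 269.9 CPM, a 2.05-fold rise. Its relative Ifitm2 was at 438, 418 and 404 CPM against 436, 413 and 266 CPM and did not pass. Xaf1, an apoptosis-associated interferon target, was at 772 to 807 CPM against 609.8 to 738 CPM, each IFNγ sample below each control, and did not pass either (edgeR adjusted p = 0.62).

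The ligands and secreted factors by which tumour cells reach immune cells were tested only in part, and none of those tested was called. Of 15 listed checkpoint ligands and related surface genes 6 were tested, and of 19 chemokines and cytokines 7. None passed, beside 0.97% of all genes tested. Pdcd1lg2, Icam1, Vcam1, Cxcl9, Cxcl16 and Il15 were among those not tested. Cd274 was at 0.888, 1.17 and 0.689 CPM in the controls and 4.89, 2.0 and 7.01 CPM in the IFNγ samples, on 7 and 12 counts. The groups were apart, but the log2 difference of 2.08 ± 0.69 did not pass (edgeR adjusted p = 0.19). Cxcl10, which attracts T cells, was at 3.55, 4.29 and 2.76 CPM against 4.89, 1.0 and 3.5 CPM, a log2 difference of −0.06 ± 0.58. Ccl2, which attracts monocytes, was at 658 to 735 CPM against 579 to 692 CPM. Csf1, a growth factor of macrophages, was at 19.5 to 21 CPM against 25.7 to 38.6 CPM and did not pass.

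Other functions gave few calls or none. Of 16 cell death genes, Casp12 rose 1.89-fold, with 1 IFNγ sample among the controls, and did not pass without IFNγ replicate 1 (0.19), IFNγ replicate 2 (0.11), control replicate 1 (0.06) or control replicate 2 (0.093). Casp1, the inflammasome protease, was at 33.7 to 45.5 CPM against 62.1 to 73.6 CPM and did not pass (edgeR adjusted p = 0.14). No gene was called among 11 of NF-κB, 20 immediate-early, 24 of TGF-β, 12 of neural crest and dedifferentiation, 34 of the extracellular matrix, 16 of G1 control, 52 of replication and mitosis, 70 of the respiratory chain, 29 of sterol and fatty acid synthesis and 31 of ER stress. Their median log2 fold changes lay between −0.16 (NF-κB) and 0.35 (TGF-β). Over all genes tested 0.97% were called, a share at which lists of these sizes can hold no call. Only tested members are counted, for example 11 of 25 listed for NF-κB and 12 of 20 for neural crest and dedifferentiation. Vim, a mesenchymal filament gene, was at 1069, 1201 and 1123 CPM against 1205, 3871 and 1090 CPM, so that 1 IFNγ sample stood apart from the other 5 samples.

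The genes called lower changed by less, and most lost their call without 1 library. Of the 24, 17 kept it without IFNγ replicate 1, 4 without IFNγ replicate 2, 2 without IFNγ replicate 3, and 12, 4 and 5 without control replicates 1, 2 and 3. Plin3, which coats lipid droplets, was at 20.4, 20.7 and 32.4 CPM in the controls and 11, 8.01 and 0 CPM in the IFNγ samples, a log2 fold change of −1.53 ± 0.33 (edgeR adjusted p = 0.0067). It did not pass without IFNγ replicate 2 (0.068) or control replicate 3 (0.12). Tmem256, a small membrane protein, was at 474, 461 and 447 CPM against 316, 289 and 298 CPM, a log2 fold change of −0.61 ± 0.12, and passed in each of 11 alternatives, the only lower gene to do so. S100b, a calcium-binding protein of glia and melanocytes, was at 107, 111 and 106 CPM against 59.3, 69.1 and 42.1 CPM. Its log2 fold change was −0.84 ± 0.20, and it did not pass without IFNγ replicate 1 (0.13), IFNγ replicate 3 (0.13), or control replicate 1 (0.063), 2 (0.098) or 3 (0.07). Igf1, a growth factor, was at 58.6, 65.5 and 70.7 CPM against 41.5, 28 and 31.5 CPM. Samhd1, which degrades dNTPs and restricts viruses, was at 369, 321 and 289 CPM against 237, 243 and 133 CPM, a log2 fold change of −0.60 ± 0.14, and did not pass without IFNγ replicate 3 (0.23), control replicate 1 (0.21) or control replicate 2 (0.078).

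Tmsb4x, which binds actin monomers, was at 3709, 3983 and 4136 CPM against 2764, 2423 and 2401 CPM, a log2 fold change of −0.64 ± 0.16, and did not pass without IFNγ replicate 2 or 3 or without any one control. Myl12b, a myosin light chain, was at 325 to 414 CPM against 196 to 264 CPM and did not pass with library totals as the only scaling or without IFNγ replicate 2 or 3 or control replicate 2 or 3. Tuba1a, an alpha tubulin, was at 1836, 2018 and 2151 CPM against 1513, 1208 and 1251 CPM, a log2 fold change of −0.59 ± 0.14, and did not pass without IFNγ replicate 2 or 3 or control replicate 2 or 3. The log2 fold changes of Lmf1, Rab34, Nudt2 and Nme2 were −1.42, −1.37, −1.29 and −1.03, and those of Cnp and Zfp952 were −0.65 and −0.65. Of 11 alternatives, Cnp passed in 1, Lmf1 in 2, Rab34 and Zfp952 in 5, Nme2 in 6 and Nudt2 in 8. Nme2 overlaps another gene model. Gapdh, a glycolytic enzyme, was at 2527, 2799 and 2836 CPM against 2109, 2044 and 1889 CPM. Of 24 genes of glycolysis and hypoxia it was the only one called, beside 0.97% of all genes tested. Gapdh did not pass with library totals as the only scaling (log2 −0.33, edgeR adjusted p = 0.17) or without any 1 sample.

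Of 76 tested ribosomal protein genes, 2 were called lower and none higher, 63 had all 3 IFNγ samples below all 3 controls, beside 11.8% of all genes tested, and the median log2 fold change was −0.30. The number called lower was 19 with no filter on low counts and 12 with only the compared groups in the fit, and no member was called without any one IFNγ replicate or without control replicate 1. Rps9 was at 4976, 1960.1 and 2031 CPM in the controls and 1877, 1665 and 1651 CPM in the IFNγ samples, and Rps23 at 5459, 2780.2 and 2965 CPM against 2448, 2132 and 2418 CPM. In both, control replicate 1 stood far above the other controls, and without it the log2 fold change was −0.19 for Rps9 (adjusted p = 0.82) and −0.29 for Rps23 (adjusted p = 0.63). The median over the 76 genes was −0.20 at 1 week and −0.36 in CT26 at 3 weeks, and −0.06 both at 2 weeks and in naive cells at 24 h. Control libraries had 2309928 to 3161276 counts at 1 week, against 484092 to 1965197 in IFNγ, and 1318011 to 2183005 in CT26 at 3 weeks, against 295157 to 1080409. At 2 weeks they had 994733 to 1270700, against 1093299 to 2140588 in IFNγ. Depth thus moved with this result, and its part in it was not tested.

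**Figure D4:**
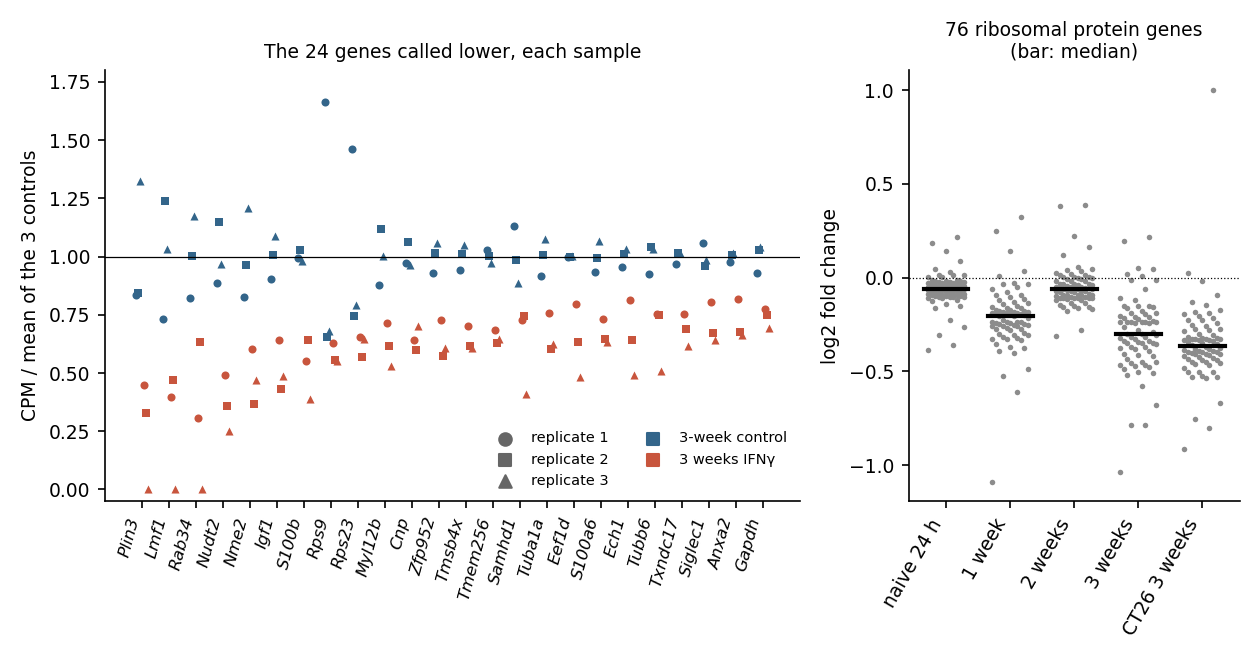
Left, CPM of each sample divided by the mean of the 3 controls for the 24 genes called lower, with controls in blue and IFNγ samples in red. Right, log2 fold changes of 76 ribosomal protein genes in 5 comparisons, with a bar at the median, which is −0.30 at 3 weeks and −0.06 at 2 weeks.

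The higher genes were largely called at other times as well. In YUMM2.1 there were 86 higher (0.897%) and 21 lower genes (0.219%) at 2 weeks, 63 higher (0.657%) and 7 lower (0.0730%) at 1 week, and 82 higher (0.855%) and 3 lower (0.0313%) in naive cells at 24 h. Of the 69 genes higher at 3 weeks, 57 were also higher at 2 weeks, 82.6% of the 69 and 66.3% of the 86. At 1 week 54 were higher, 78.3% of the 69 and 85.7% of the 63. In naive cells 55 were higher, 79.7% of the 69 and 67.1% of the 82. In all 4 comparisons 49 genes were higher. The 8 genes called higher at 3 weeks and in none of the other 3 comparisons, named after their values were seen, were Anp32b, Ddx60, H2-DMa, Mndal, Mov10, Parp11, Scap and Taok3, and none of these passed the test of the difference from the effect at 2 weeks or in naive cells. None of the 24 lower genes was called lower in the other 3, and 18, 22 and 22 had a negative log2 fold change at 2 weeks, at 1 week and in naive cells.

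The size of the effect was tested directly. Against 2 weeks, 1 gene differed (0.0104%), by edgeR's test of the difference between effects, whereas 619 had an unadjusted p under 0.05. Gbp2 was at 4.85, 3.07 and 4.3 CPM in the 2-week controls and 214, 238 and 194 CPM after 2 weeks of IFNγ, a log2 fold change of 5.67 ± 0.23, so its effect at 3 weeks was smaller by a log2 difference of −1.98 ± 0.36 (adjusted p = 0.017). The 3-week controls were all above the 2-week controls, and the 3-week IFNγ samples all below those at 2 weeks. The difference did not pass without control replicate 1, 2 or 3, where 0 genes were called.

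Against naive cells at 24 h, 5 genes differed (0.0521%), and 405 had an unadjusted p under 0.05. Gbp2 was at 333, 368 and 387 CPM in naive cells at 24 h, and its effect at 3 weeks was smaller by a log2 difference of −2.39 ± 0.32 (adjusted p = 2.4e-05). The effect on Psme1 was 1.22 ± 0.17 at 3 weeks and 2.56 ± 0.18 at 24 h, a difference of −1.34 ± 0.25. That on Ifitm3 was 1.03 ± 0.14 and 2.12 ± 0.14, a difference of −1.08 ± 0.20. The differences were −1.02 ± 0.21 for Psmb10 and −0.82 ± 0.17 for Psme2. All 5 genes were called higher in both comparisons and had the smaller effect at 3 weeks. When 1 sample was left out, 3 genes differed without IFNγ replicate 1, 2 without control replicate 1 or 2, 1 without control replicate 3 and 4 without IFNγ replicate 2 or 3.

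MHC class II genes went the other way without passing this test. H2-Aa had no count in naive cells or in naive cells at 24 h, and was at 2.53, 6.1 and 2.13 CPM after 1 week, 10.5, 4.49 and 3.39 CPM after 2 weeks and 5.5, 3.0 and 0 CPM after 3 weeks of IFNγ. It was at 0 in all 3 groups of controls of those ages. The log2 fold change of H2-DMb1 was 0.31 ± 0.73 at 24 h, 2.54 ± 0.50 at 1 week, 2.99 ± 0.55 at 2 weeks and 4.39 ± 0.59 at 3 weeks, and the difference between 3 weeks and 24 h was 4.08 ± 1.02 (edgeR adjusted p = 0.21). Cxcl10 had log2 fold changes of 2.58 ± 0.58 at 24 h (adjusted p = 0.0074) and 2.89 ± 0.63 at 2 weeks (adjusted p = 0.0049), and −0.06 ± 0.58 at 3 weeks. The difference between 3 weeks and 2 weeks, −2.95 ± 0.88, did not pass (adjusted p = 0.58).

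**Figure D5:**
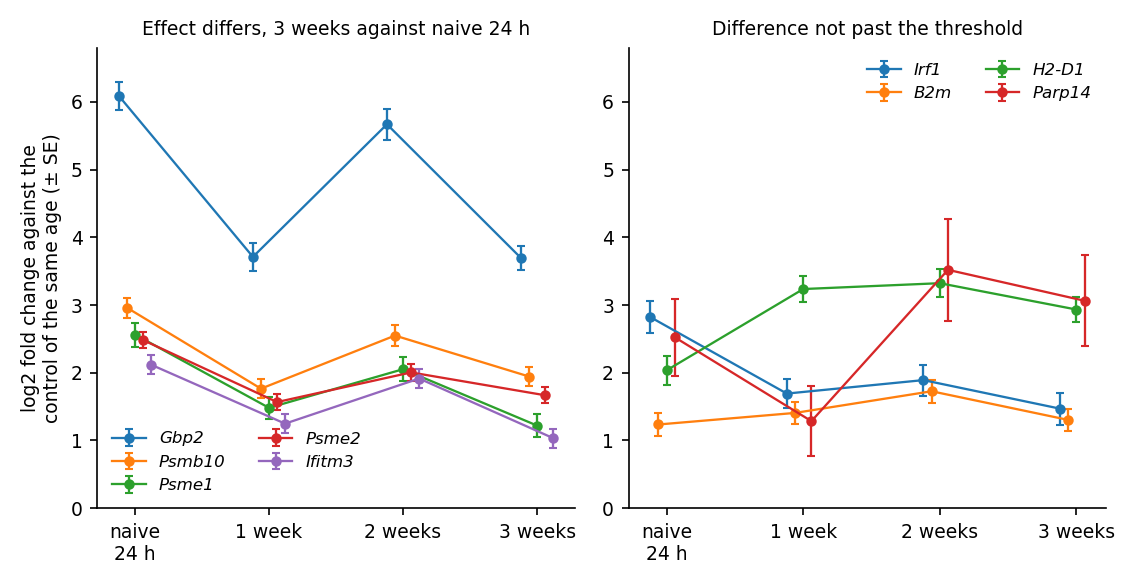
Log2 fold change against the control of the same age, with SE, in naive cells at 24 h and after 1, 2 and 3 weeks of IFNγ. Left, 5 genes whose effect at 3 weeks differed from that in naive cells, Gbp2 being at 6.09 at 24 h and 3.69 at 3 weeks, and right, 4 genes whose difference did not pass, B2m being at 1.24 and 1.30.

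In CT26 cells after 3 weeks of IFNγ, 293 of 8516 tested genes were higher (3.44%) and 323 were lower (3.79%). Of the 69 genes higher in YUMM2.1, 61 were tested in CT26 and 55 were higher there, 79.7% of the 69 and 18.8% of the 293. Of the 24 lower genes, 21 were tested and 12 were lower there, 50% of the 24 and 3.72% of the 323. These 12, among them Rps9, Rps23, Samhd1, Tmsb4x and Tuba1a, were fitted where the CT26 control libraries were also deeper than the IFNγ libraries.

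Of 10339 genes tested in both lines together, the effect of 3 weeks of IFNγ differed between the lines in 11 (0.106%), and 664 had an unadjusted p under 0.05. Without control replicate 1 or 2 of YUMM2.1, 7 genes differed. H2-D1 had the larger effect in YUMM2.1, with log2 fold changes of 2.93 ± 0.18 and 1.53 ± 0.13 in the separate fits and a difference of 1.34 ± 0.22 in the joint fit (edgeR adjusted p = 0.00027). Of the 9 guanylate-binding proteins, 3 had a smaller effect in YUMM2.1 and the other 6 did not pass the test of the difference. Gbp3 differed by −3.28 ± 0.55, Gbp7 by −1.97 ± 0.37 and Gbp2 by −1.46 ± 0.34. Ifit3 differed by −3.02 ± 0.57, with log2 fold changes of 1.73 ± 0.29 in YUMM2.1 and 4.67 ± 0.46 in CT26. Parp14 had log2 fold changes of 3.06 ± 0.67 and 5.97 ± 0.85, and the difference did not pass (edgeR adjusted p = 0.74).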

How the data were processed

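Counts per gene and sample were deposited by the authors in whole numbers, not normalized and not pooled. Per the submitters' processing notes they used Salmon 0.13.1 and mm10, and the study's methods name tximport. Use of molecular identifiers is not given in the sources used here. The study discarded 1 YUMM2.1 sample that it does not name, so all samples were kept.

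Of 53697 gene identifiers, 53668 matched a symbol in GENCODE for GRCm38. Counts were analysed in R 4.3.3 with edgeR 4.0.16. Low counts were removed with filterByExpr by group, counts were scaled by TMM, and 1 quasi-likelihood model was fitted over the 15 groups of the 45 YUMM2.1 samples, which share the estimate of spread. Contrasts were tested by glmQLFTest with Benjamini-Hochberg adjustment over all 9589 genes at 0.05. Differences between effects were contrasts of the same fit, and differences from CT26 came from 1 fit of 90 samples. CPM were computed by edgeR's cpm on TMM-scaled library sizes, and log2 fold changes are those of the fit. Each SE is the absolute log2 fold change divided by the square root of the F statistic of the fit that gave it. For genes with no control count, a bound against 3 counts is given, and for 1 to 3 counts the ratio of scaled counts with a 95% exact binomial interval. Totals of 274719 to 3047691 counts set the precision.

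Members and lists were chosen with earlier results of these data known. Genes named were the 15 higher and 15 lower called genes with the largest fold change and no overlap of groups, called list members with up to 4 list members per list that did not pass, 14 genes of the pathway, and the leading genes of each difference. Promoters were from RefSeq. Alternatives were DESeq2 1.42.0, library totals, no filter, only the compared groups, a replicate block, other thresholds and leaving out each sample. Some results on list members are not reported here. The code was tested on simulated data.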

Additional observations from a re-analysis of the deposited data

Results flagged for a closer look

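The effect of IFNγ on some genes differed between 3 weeks and another comparison by edgeR's test of the difference between effects. On the log2 scale, the effect on Gbp2 at 3 weeks less that at 2 weeks was −1.98. Less the effect in naive cells at 24 h, it was −2.39 for Gbp2, −1.34 for Psme1, −1.08 for Ifitm3, −1.02 for Psmb10 and −0.82 for Psme2.

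Between the lines, the 3-week effect in YUMM2.1 less that in CT26 was −3.28 for Gbp3, −1.97 for Gbp7 and −1.46 for Gbp2. It was −3.02 for Ifit3, −2.58 for Ifit1, −2.30 for Samd9l, −3.14 for Spag9 and −1.13 for Shisa5. It was 1.34 for H2-D1, 1.37 for Sirt5, a mitochondrial deacylase, and 0.88 for Ndufa4, a subunit of the respiratory chain. Sirt5 and Ndufa4 were called in CT26 and not in YUMM2.1. Ifit1, Samd9l, Spag9 and Shisa5 were not called in YUMM2.1 either.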

How the results depend on the processing

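Of the 69 higher and 24 lower genes, 46 and 1 passed in every alternative in which they were tested, and none changed its direction. With only the compared groups in the fit, 52 of the 69 higher calls were kept and 3 were lost. The others had too few counts in those groups to be tested. Among them were Parp14, Nlrc5, H2-K1, H2-Aa, H2-Eb1, H2-DMa, Gbp8 and Ddx60. The higher genes numbered 54 to 100 over the alternatives. The lower genes numbered 13 with library totals as the only scaling, which moved the median log2 fold change of all genes to 0.10, 86 with no filter on low counts, 53 with only the compared groups in the fit, 40 at an adjusted p below 0.1, and 2 to 33 when 1 sample was left out. Genes whose effect differed from that at 2 weeks numbered 5 with DESeq2, 45 with no filter, 2 with only the compared groups, 2 at an adjusted p below 0.1 and 0 to 1 when 1 sample was left out. Genes that differed from naive cells numbered 9 with DESeq2, 49 with no filter, 2 with only the compared groups and 1 to 4 when 1 sample was left out. Genes that differed from CT26 numbered 20 with DESeq2, 40 with no filter and 7 to 14 when 1 sample was left out. The cause was not tested.

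Log2 differences that did not pass changed sign in some cases. With library totals they were 0.0386 for Ifngr1, 0.00642 for Pdia3, 0.0288 for Cxcl10 and 0.0267 for Sirt5. When 1 sample was left out they ranged from −0.202 to 0.0479 for Ifngr1, −0.128 to 0.359 for Jak1, −0.226 to 0.0422 for Pdia3, −0.00229 to 0.198 for Psmb6, −1.12 to 0.391 for Cxcl10, −0.26 to 0.0355 for Ifitm2, −0.298 to 0.475 for Sox10 and −0.146 to 0.0359 for Sirt5. Gbp10 ranged from 0 to 3.75 and Gvin1 from 0 to 8.17, and each was at 0 without the only 1 of the 6 samples that had counts of it.

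Deviations of samples with the same replicate number correlated at 0.00613, 0.00889 and 0.00882. Counting noise in genes at a few counts draws such values towards 0, so they cannot tell whether the numbers pair the samples. With the replicate number as a block, 69 genes were higher and 27 lower, and 68 and 22 of the calls were kept. Depth limits what can be said of genes at a few counts, above all in IFNγ replicate 3, where 1 count is 3.5 CPM.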
